A study of Mus musculus with 8 samples.

Results

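The 5 genes described here encode the mouse receptors for the constant region of IgG and the signalling subunit they share. They are the activating receptor genes Fcgr1, Fcgr3 and Fcgr4, the inhibitory receptor gene Fcgr2b and the gamma chain gene Fcer1g, taken by symbol from a table of 23369 genes. All 5 were present, and all 5 were among the 12610 genes with enough counts to be tested. The libraries came from spinal cord neutrophils, gated as CD45+CD11b+Ly6G+, of C57BL/6N mice in which experimental autoimmune encephalomyelitis (EAE) had been induced, a model of multiple sclerosis in which immune cells attack the myelin of the brain and spinal cord. Both groups carried EAE, and they differed in zeitgeber time (ZT, hours after lights-on): 4 libraries were from ZT13, early in the dark phase, and 4 from ZT1, early in the light phase. The labels name no age, sex or stage of disease, and the samples include no healthy mice and no other tissue.

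Fc gamma receptors tie antibodies to the effector functions of myeloid cells. FcγRI, FcγRIII and FcγRIV bind IgG in immune complexes or on coated targets and signal through the gamma chain, whose immunoreceptor tyrosine-based activation motif (ITAM) is phosphorylated by Src family kinases and recruits Syk, leading to phagocytosis, the oxidative burst and degranulation. FcγRIIB binds the same complexes but carries an inhibitory motif (ITIM) that recruits the lipid phosphatase SHIP1, so that the balance of activating to inhibitory receptors sets a threshold for the response to immune complexes.

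The 2 signalling motifs are shown because they separate the activating from the inhibitory arm. Both were read from GENCODE M21 coding sequences (build GRCm38, chromosome 1), with the tyrosine and leucine codons in capitals.
Fcer1g ITAM, codons 65 to 79 of 86: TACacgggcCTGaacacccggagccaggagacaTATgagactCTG
Fcgr2b ITIM, codons 317 to 322 of 340: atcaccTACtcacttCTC
The ITAM spacing, with 7 codons between its pairs, was found in Fcer1g and in none of the 4 receptor genes. The looser ITIM pattern also matched 3 stretches of Fcgr1, 1 of Fcgr4 and 1 of Fcer1g, so a match alone is a description of the letters.

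The 4 genes other than Fcgr1 lie within 1 stretch of chromosome 1. Fcgr2b (ENSMUSG00000026656) spans chr1:170958617-170976547 on the minus strand, Fcgr4 (ENSMUSG00000059089) chr1:171018920-171029761 on the plus strand, Fcgr3 (ENSMUSG00000059498) chr1:171051174-171064935 on the minus strand and Fcer1g (ENSMUSG00000058715) chr1:171229572-171234365 on the minus strand. Fcgr1 (ENSMUSG00000015947) lies apart at chr3:96282909-96293969 on the minus strand. The coding sequences of Fcgr3 and Fcgr2b were identical at 678 of 782 aligned bases (86.7%), against 64.1% to 68.6% for the other pairs of receptor genes. Their longest identical run holds 129 bases, at coding positions 263 to 391 of Fcgr3 and 278 to 406 of Fcgr2b, and is shown because reads of 50 bases from it cannot be told apart.
Fcgr3 and Fcgr2b, shared run: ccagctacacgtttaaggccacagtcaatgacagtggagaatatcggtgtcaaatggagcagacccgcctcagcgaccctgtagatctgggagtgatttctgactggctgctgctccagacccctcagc
Of the 50-base windows of their exons, 9.58% of Fcgr3 (166 of 1733) occurred in Fcgr2b as well, while 6.95% of Fcgr2b (395 of 5685) occurred in some other gene. Fcgr1, Fcgr4 and Fcer1g shared no such window with another gene. No source used here says how reads mapping to several places were counted, so the Fcgr3 and Fcgr2b values hold that uncertainty.

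The libraries held 46152067 to 67873023 counts, so that 3 counts, the most that a count of 0 leaves possible, equal 0.0442 to 0.0650 CPM (counts scaled to library size), far under every member. Genes with 1 or more counts numbered 13945 to 15751 in the ZT13 libraries and 15760 to 17701 in the ZT1 libraries, and ZT13 replicate 3 had the fewest. Transcripts of the sort markers were present in every library: Itgam (CD11b) averaged 488 ± 14.9 CPM at ZT13 and 482 ± 16.8 at ZT1, and Ly6g 485 ± 24.2 at ZT13 and 369 ± 108 at ZT1 (mean ± SD, n = 4 each, as for all means below). The 12 neutrophil markers summed to 180268 to 229180 CPM at ZT13 and 137100 to 176699 at ZT1. Monocyte and macrophage markers were also present, with the 13 genes of that list summing to 3304 to 4689 CPM at ZT13 and 3405 to 4435 at ZT1. The largest contributor, F13a1, averaged 1337 ± 215 CPM at ZT13 and 1287 ± 249 at ZT1. Myeloid cells other than neutrophils also express Fc gamma receptors, and the part of such RNA in the members' levels was not tested.

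All members were detected in every library, and their levels covered more than 2 orders of magnitude. Per kilobase of merged exons, the scale that allows levels of different genes to be compared, Fcer1g was the most abundant with a mean of 1246 CPM per kb over the 8 libraries (824 to 1561), higher than 99.8% of the tested genes. Fcgr3 followed with 586 CPM per kb (447 to 706), above 99.5% of genes. Fcgr4 stood at 98.3 (70.9 to 130.4), Fcgr2b at 18.5 (13.6 to 23.1) and Fcgr1 at 9.90 (5.08 to 19.4). The ranges of neighbours in this order were apart except for Fcgr2b and Fcgr1, whose ranges overlapped. Within each library Fcgr2b was still above Fcgr1. With the longest coding transcript as the length Fcgr2b stood at 30.3 (22.2 to 37.8), apart from Fcgr1, and the order of the 5 genes was the same.

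**Figure D1:**
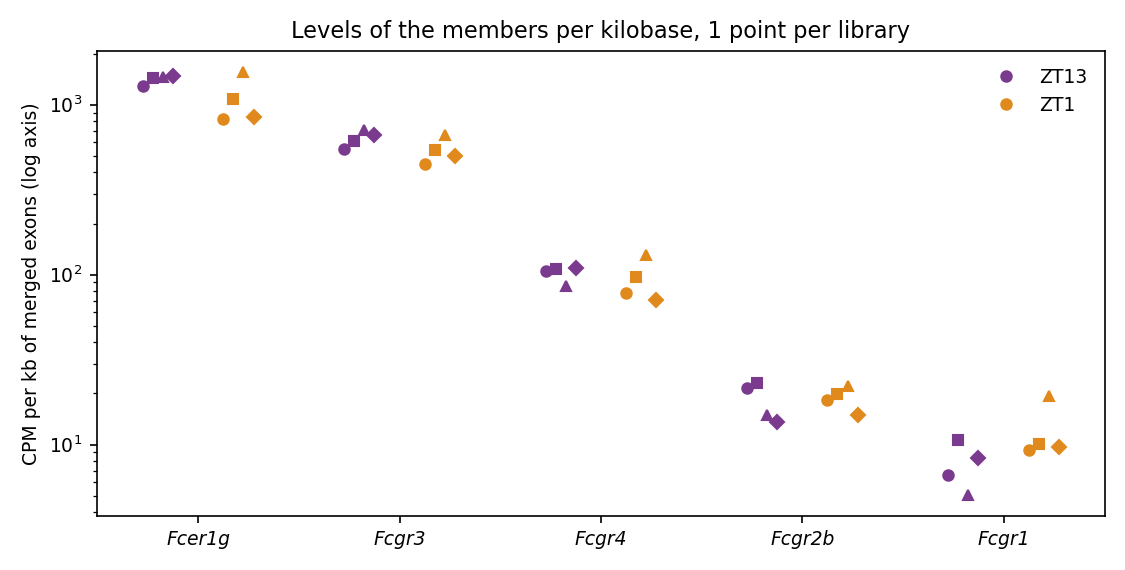
Level of each member in CPM per kilobase of merged exons (log axis), 1 point per library, ZT13 libraries left and ZT1 libraries right within each gene, with the marker shape giving the replicate number. Fcer1g and Fcgr3 lie highest, Fcgr4 follows, and the points of Fcgr2b and Fcgr1 overlap.

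Among the ligand-binding receptors the composition was dominated by Fcgr3. With merged exons as the length, it made up 83.0 ± 2.92% of the summed per-kilobase level of the 4 receptor genes at ZT13 and 81.3 ± 1.85% at ZT1. Fcgr4 made up 13.5 ± 2.07% at ZT13 and 14.0 ± 1.52% at ZT1, Fcgr2b 2.43 ± 0.773% at ZT13 and 2.86 ± 0.349% at ZT1, and Fcgr1 1.01 ± 0.322% at ZT13 and 1.79 ± 0.362% at ZT1. The low-affinity activating receptor was therefore the main receptor transcript at both times, the neutrophil and monocyte receptor FcγRIV the next, and the high-affinity receptor and the inhibitory receptor held the small remainder.

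Between the time points no member passed the test, and the estimates of the activating receptor genes differed in sign. Of 12610 genes tested with edgeR, 0 had an adjusted p under 0.05 (0%), so the members' count of 0 of 5 equals the background. At an unadjusted p under 0.05 stood 1160 genes (9.2%) and 0 of the 5 members. The ZT13 and ZT1 libraries did not overlap for 714 genes (5.66%) and for 0 of the 5 members. DESeq2, run as another test on the same counts, called 115 of 12068 genes (0.953%) and none of the members. In point estimates, log2 fold changes of ZT13 over ZT1 were positive for Fcer1g, Fcgr3 and Fcgr4 and negative for Fcgr1 and Fcgr2b, against a median of -0.02 over all genes.

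**Figure D2:**
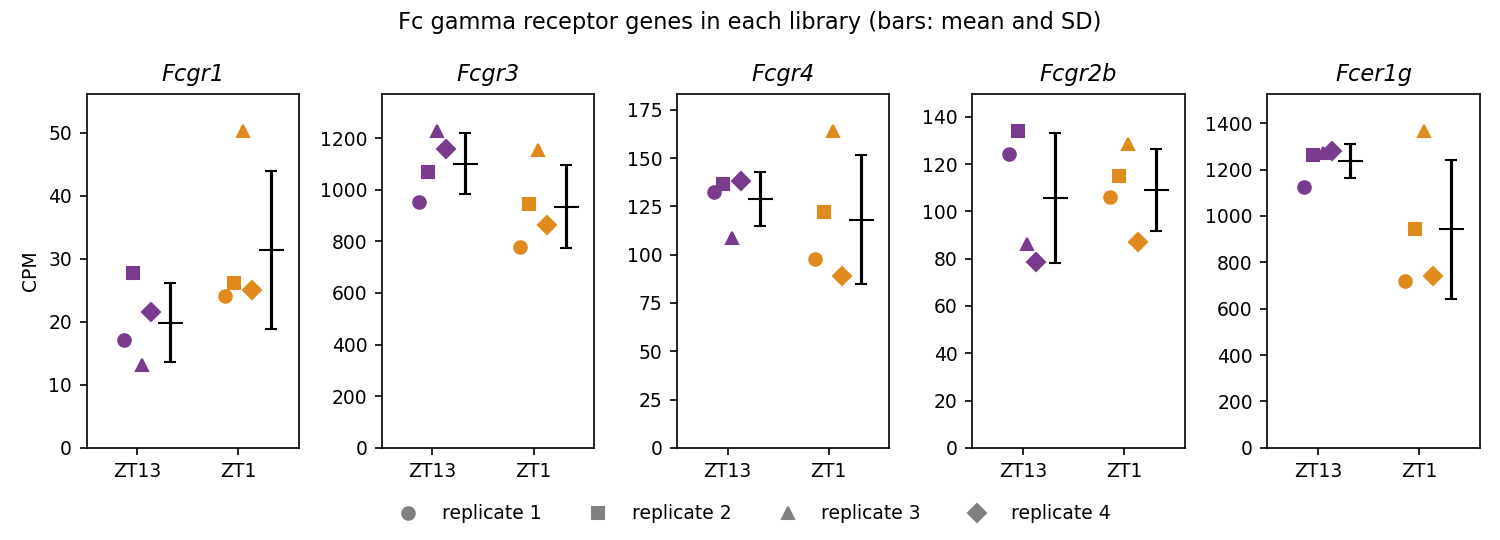
CPM of each member in each library (linear axes from 0, 1 point per library, marker shape for the replicate number), with ZT13 left of ZT1 and bars for the mean and SD of 4 libraries. In every gene the groups overlap, and ZT1 replicate 3 is the highest of the 8 libraries in Fcgr1, Fcgr4 and Fcer1g.

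Fcgr1 encodes FcγRI (CD64), the high-affinity receptor, which is known to be induced by interferon-gamma. It had 17.1, 27.7, 13.2 and 21.5 CPM in ZT13 replicates 1 to 4, against 24.2, 26.1, 50.2 and 25.1 CPM in ZT1 replicates 1 to 4. Only ZT13 replicate 2 reached into the ZT1 range, the other 3 ZT13 libraries lay below every ZT1 library, and ZT1 replicate 3 stood far above its group. The means were 19.9 ± 6.23 CPM at ZT13 and 31.4 ± 12.6 CPM at ZT1. The log2 fold change was -0.66 ± 0.30 (SE; 95% interval -1.33 to 0.01), and it missed the threshold (edgeR adjusted p = 0.544). Without ZT1 replicate 3 it was -0.34 (edgeR adjusted p = 0.731), and over the 8 fits that each left out 1 library it ranged from -0.86 to -0.34. In sorted cells, fewer cells of a type and less RNA per cell cannot be told apart, here or for the other members.

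Fcgr3 encodes FcγRIII (CD16), the low-affinity activating receptor of neutrophils, macrophages and natural killer cells. Its values were 952, 1067, 1225 and 1158 CPM in ZT13 replicates 1 to 4, against 777, 943, 1154 and 864 CPM in ZT1 replicates 1 to 4. The highest ZT13 libraries, replicates 3 and 4, lay above every ZT1 library, while the other 2 lay inside the ZT1 range. The means were 1101 ± 118 CPM at ZT13 and 934 ± 161 CPM at ZT1, a log2 fold change of 0.24 ± 0.13 (SE; 95% interval -0.06 to 0.53; edgeR adjusted p = 0.630). Leaving out 1 library at a time gave 0.16 to 0.35.

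Fcgr4 encodes FcγRIV, a receptor of mouse neutrophils, monocytes and macrophages that binds IgG2a and IgG2b. It had 132.5, 136.5, 108.4 and 137.8 CPM in ZT13 replicates 1 to 4, against 97.5, 122, 164 and 89.0 CPM in ZT1 replicates 1 to 4. All ZT13 libraries fell within the wider ZT1 range. The means were 128.8 ± 13.8 CPM at ZT13 and 118 ± 33.5 CPM at ZT1, with a log2 fold change of 0.13 ± 0.18 (SE; 95% interval -0.29 to 0.54; edgeR adjusted p = 0.897). Without ZT1 replicate 3 the log2 fold change was 0.32 (edgeR adjusted p = 0.427), and without another library it went down to 0.01.

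Fcgr2b, the inhibitory receptor, had 124, 134, 86.0 and 78.7 CPM in ZT13 replicates 1 to 4, against 106, 115, 128 and 87.0 CPM in ZT1 replicates 1 to 4. The ZT13 libraries split to both sides, with replicate 2 above every ZT1 library and replicates 3 and 4 below every one. The means were 106 ± 27.4 CPM at ZT13 and 109 ± 17.4 CPM at ZT1, and the log2 fold change was -0.05 ± 0.19 (SE; 95% interval -0.47 to 0.38; edgeR adjusted p = 0.971). That interval is wide, so the data do not show that Fcgr2b was equal at the 2 times. The estimate turned positive without ZT13 replicate 3 (0.04), without ZT13 replicate 4 (0.07) and without ZT1 replicate 3 (0.04). Summed monocyte and macrophage markers were 4363, 4689, 3304 and 3837 CPM in ZT13 replicates 1 to 4, against 3857, 3405, 4435 and 3850.5 CPM in ZT1 replicates 1 to 4. Of that list Apoe, chosen after its values were seen, had 401, 360, 139 and 134 CPM in ZT13 replicates 1 to 4, against 196, 197, 415 and 205 CPM in ZT1 replicates 1 to 4. ZT13 replicates 1 and 2 were thus high in Fcgr2b, Apoe and the summed list. Replicates 3 and 4 of ZT13 were low in Fcgr2b and Apoe. Not every gene of the list had that order, and Cd68 had 214, 255, 200 and 262 CPM in ZT13 replicates 1 to 4. At ZT1 the summed list was lowest in replicate 2 (3405 CPM), whereas Fcgr2b was lowest in replicate 4 (87.0 CPM). The part of such cells in the Fcgr2b level was not tested. The antisense gene Gm38204 overlaps Fcgr2b. The library kit was unstranded, so reads from the overlap cannot be assigned to either gene by strand, and no source used here gives the strand setting of the counting.

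Fcer1g encodes the common gamma chain, without which the activating receptors are poorly expressed at the surface. It had 1125, 1264, 1269 and 1282 CPM in ZT13 replicates 1 to 4, against 720, 944, 1364 and 741 CPM in ZT1 replicates 1 to 4. The ZT13 libraries were tightly grouped, and 3 of the 4 ZT1 libraries lay below all of them while ZT1 replicate 3 lay above all of them. The means were 1235 ± 73.5 CPM at ZT13 and 942 ± 299 CPM at ZT1. The log2 fold change was 0.39 ± 0.19 (SE; 95% interval -0.03 to 0.81; edgeR adjusted p = 0.569). Without ZT1 replicate 3 it was 0.62 (edgeR adjusted p = 0.113), still not past the threshold.

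Transcript length moved with the time-point difference across the whole table, and the members differ in length. Genes with merged exons under 1 kb, the class of Fcer1g (0.874 kb), had a median log2 fold change of 0.31, with 71.8% of 819 genes higher at ZT13. For genes of 1 to 2 kb, the class of Fcgr4 (1.256 kb) and Fcgr3 (1.736 kb), the median was 0.18 with 67.3% of 1529 higher. Genes of 2 to 3 kb, the class of Fcgr1 (2.589 kb), had a median of 0.05, and those of 3 to 6 kb, the class of Fcgr2b (5.79 kb), a median of -0.07. The log2 fold change minus the median of its length class was 0.08 for Fcer1g, 0.06 for Fcgr3, -0.05 for Fcgr4 and 0.03 for Fcgr2b, against -0.71 for Fcgr1. Of the 14 genes under 1 kb with a mean of 500 CPM or more, Fcer1g among them, 92.9% were higher at ZT13 with a median of 0.49. The part of length in the members' differences was not tested.

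**Figure D3:**
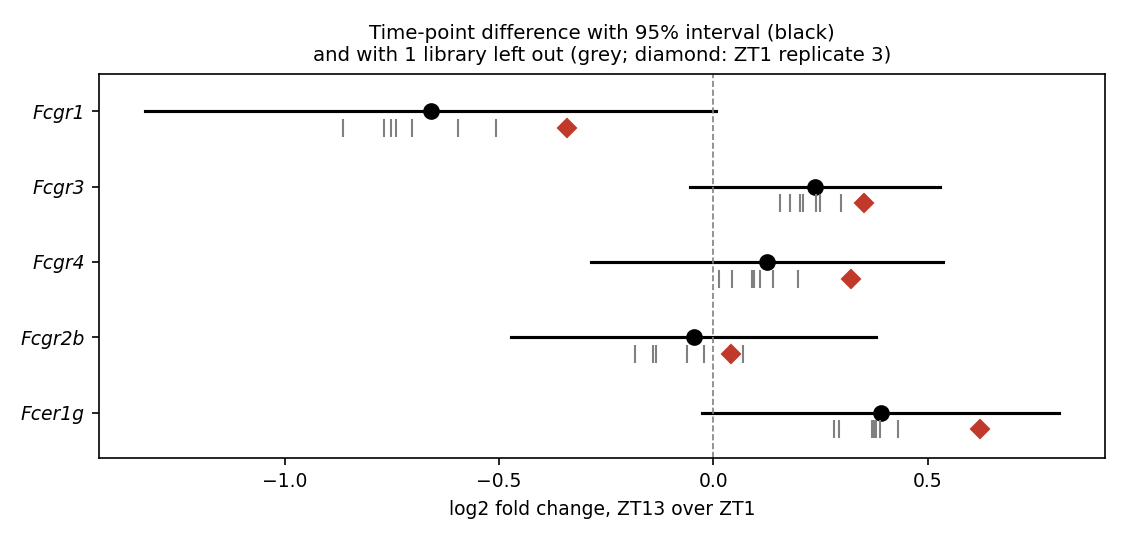
Log2 fold change of ZT13 over ZT1 for each member, with the 95% interval in black and, in grey ticks, the estimates with 1 library left out; the red diamond leaves out ZT1 replicate 3. Every interval reaches across 0, and leaving out ZT1 replicate 3 moved Fcgr1 to -0.34 and Fcer1g to 0.62.

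The activating to inhibitory balance was described as the log2 ratio of the summed per-kilobase levels of Fcgr1, Fcgr3 and Fcgr4 to that of Fcgr2b. It was 4.94, 4.99, 5.75 and 5.85 in ZT13 replicates 1 to 4, against 4.87, 5.04, 5.20 and 5.26 in ZT1 replicates 1 to 4. ZT13 replicates 3 and 4 lay above the other 6 libraries, and ZT13 replicates 1 and 2 lay among the ZT1 libraries. In linear terms, with merged exons as the length, the activating transcripts exceeded Fcgr2b 30.8-fold to 57.8-fold at ZT13 and 29.2-fold to 38.5-fold at ZT1. The size of that excess depends on the length used. With the longest coding transcript, Fcgr2b averaged 29.8 CPM per kb at ZT13, against 18.3 with merged exons, and Fcgr3 817 against 634. The mean log2 ratio was 5.38 ± 0.48 at ZT13 and 5.09 ± 0.18 at ZT1, a difference of 0.29 ± 0.26 (SE), smaller than the SD within ZT13. No test was made, since the members were chosen with results known. Length differs between the activating genes and Fcgr2b. Median log2 fold changes of the length classes were 0.18 for Fcgr3 and Fcgr4, 0.05 for Fcgr1 and -0.07 for Fcgr2b. The part of length in the ratio was not tested.

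That sum is carried by Fcgr3, and the receptors gave different ratios when taken singly. Fcgr3 over Fcgr2b differed by 0.31 ± 0.27 (SE, log2, ZT13 minus ZT1) and Fcgr4 over Fcgr2b by 0.23 ± 0.20, while Fcgr1 over Fcgr2b differed by -0.57 ± 0.29. The Fcgr1 to Fcgr2b log2 ratio was -1.70, -1.11, -1.55 and -0.71 in ZT13 replicates 1 to 4, against -0.97, -0.97, -0.19 and -0.63 in ZT1 replicates 1 to 4. Groups overlapped in each of these 3 ratios. The mean of the log2 values of the 3 activating genes, which weights them equally, gave a difference of -0.01, so the direction of the balance rests on how the activating genes are combined.

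**Figure D4:**
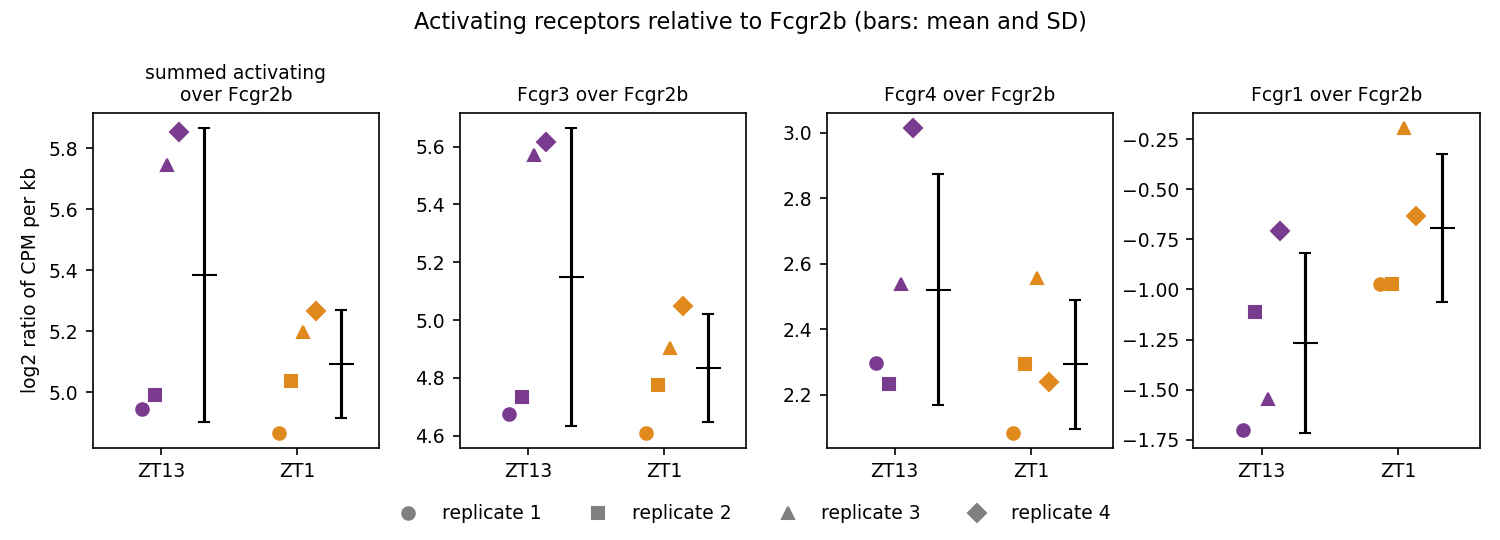
Log2 ratio of per-kilobase levels for the summed activating receptors and for each activating receptor over Fcgr2b, 1 point per library with ZT13 left of ZT1 and bars for the mean and SD of 4 libraries; the axes do not start at 0. ZT13 replicates 3 and 4 are highest in the summed ratio, and Fcgr1 over Fcgr2b averages -1.27 at ZT13 and -0.69 at ZT1.

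Within the activating arm the high-affinity receptor gene was also set against the low-affinity one. The log2 ratio of Fcgr1 to Fcgr3 was -6.38, -5.85, -7.12 and -6.33 in ZT13 replicates 1 to 4, against -5.58, -5.75, -5.10 and -5.68 in ZT1 replicates 1 to 4. All ZT13 libraries lay below all ZT1 libraries, narrowly so for ZT13 replicate 2, with means of -6.42 ± 0.52 at ZT13 and -5.53 ± 0.29 at ZT1. This ratio was singled out after its values were seen and is given with no test. In every other ratio described here the groups overlapped. Among single genes 5.66% had groups without overlap, and no such share was computed for ratios. Fcgr4 to Fcgr3 differed by -0.09 ± 0.17 (SE), with overlapping groups. The gamma chain relative to the summed activating receptors averaged 0.93 ± 0.05 at ZT13 (0.87 to 0.98) and 0.71 ± 0.17 at ZT1 (0.55 to 0.94) on the log2 scale, and ZT1 replicate 3 was the library that overlapped. The length class of Fcer1g had a median log2 fold change of 0.31, against 0.18 for that of Fcgr3 and Fcgr4 and 0.05 for that of Fcgr1. The part of length in these ratios was not tested.

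Across the 8 libraries and among the members alone, Fcer1g ran most closely with Fcgr3 (Pearson r = 0.93, Spearman rho = 0.90 of log2 CPM) and then Fcgr4 (r = 0.83), while 152 other genes were closer to Fcer1g than Fcgr3 was and 504 closer than Fcgr4. Fcgr3 and Fcgr2b, the members with the longest shared run, had r = -0.12, and Fcgr1 and Fcgr3 had r = -0.04. These values describe 8 libraries that share their time points, their batch and any difference in RNA makeup. Among 7874 protein-coding genes of 5 CPM or more, the profiles nearest to Fcgr1 were Tpi1 (r = 0.97), Cd244a (0.94) and Ddx3x (0.93), and those nearest to Fcgr3 were Eif4ebp1 (0.99), Cd52 (0.99) and Mrps21 (0.99). For Fcgr4 they were Sra1 (0.98), Sys1 (0.97) and Cmtm7 (0.96), for Fcgr2b Lyz1 (0.97), Erap1 (0.97) and Pex16 (0.94), and for Fcer1g Scand1 (0.99), Lamtor5 (0.99) and Atp6v1f (0.99).

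Genes of the interferon-gamma axis were read beside Fcgr1, and most had negative estimates, none of them past the threshold. Of 18 genes, 15 had a negative log2 fold change, while 47.7% of all tested genes were higher at ZT13. At an unadjusted p under 0.05 stood 7 of the 18, all lower at ZT13, against 9.2% of all tested genes. The median was -0.46, against -0.02 over all genes. Gbp5, an interferon-inducible GTPase, had 0.158, 0.749, 1.15 and 1.91 CPM in ZT13 replicates 1 to 4, against 8.50, 21.7, 32.96 and 7.80 CPM in ZT1 replicates 1 to 4 (edgeR adjusted p = 0.246). The chemokine gene Cxcl10 had 4.79, 5.64, 8.34 and 8.44 CPM in ZT13 replicates 1 to 4, against 7.24, 64.6, 101.1 and 13.1 CPM in ZT1 replicates 1 to 4. ZT1 replicate 3 was highest in Gbp5, Cxcl10 and Fcgr1, and ZT1 replicate 2 was the next highest in Gbp5 and Cxcl10, with 26.1 CPM of Fcgr1. The part of interferon-gamma in the Fcgr1 values was not tested. Cd274 (PD-L1) averaged 17.2 ± 6.18 CPM at ZT13 and 45.6 ± 28.2 at ZT1, while the receptor subunit Ifngr1 averaged 445 ± 38.6 at ZT13 and 472 ± 33.3 at ZT1 (log2 fold change -0.08).

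Sequence upstream of the members was searched for the letters of 4 factors' sites, since Fcgr1 induction by interferon-gamma and PU.1 binding at Fc receptor genes are textbook knowledge. The windows run from 250 bases before to 50 after the RefSeq start site (GRCm38.p6), and both strands were read. TTCNNNGAA, the interferon-gamma activated site (GAS), occurred in Fcgr1 alone among the members and in 8.30% of 32851 promoters. GAGGAA, the core of a PU.1 site, occurred in Fcgr1, Fcgr3 and Fcgr4 and in 28.3% of all promoters. The letters were not in the windows of Fcgr2b and Fcer1g. The circadian E-box CACGTG (7.15% of promoters) and the C/EBP letters TTGCGCAA (0.183%) were in no member's window. Matches are shown along the gene with the matched letters in capitals, and the PU.1 letters read there as TTCCTC.
Fcgr1 GAS, chr3:96294060-96294088, minus strand: aaggatgtatTTCCCAGAAaagggaacag
Fcgr1 PU.1 core, chr3:96294009-96294034, minus strand: ggcaacttccTTCCTCttttctaatc
Fcgr3 PU.1 core, chr1:171059394-171059419, minus strand: gtccatttccTTCCTCtttttgtagt
Fcgr4 PU.1 core, chr1:171018894-171018919, plus strand: ggctatttacTTCCTCtcttctagtc
The letters lie 109 to 101 and 55 to 50 bases before the start site in Fcgr1 and 22 to 17 bases before it in Fcgr4. In Fcgr3 they lie 6 to 1 bases before 1 start site and 15 to 10 bases before another.

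Spi1, which encodes PU.1, had 1036, 1023, 1124 and 1093 CPM in ZT13 replicates 1 to 4, against 779, 898, 1029 and 836 CPM in ZT1 replicates 1 to 4. Only ZT1 replicate 3 reached into the ZT13 range, and the log2 fold change was 0.27 ± 0.10 (SE; edgeR adjusted p = 0.491). Of the 11 transcription factor genes listed, 3 were higher and 8 lower at ZT13 with a median of -0.20. At an unadjusted p under 0.05 stood 4 of them, Spi1 included, against 9.2% of all tested genes. The other 3, all lower at ZT13, were Runx1 (36.8 ± 2.93 CPM at ZT13 and 50.4 ± 10.96 at ZT1), Stat6 (390 ± 29.6 CPM at ZT13 and 448 ± 28.3 at ZT1) and Stat3 (589 ± 68.3 CPM at ZT13 and 687 ± 45.9 at ZT1). None passed the threshold.

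Downstream of the gamma chain, the kinases and adaptors of ITAM signalling were counted as a list, and none of them passed the threshold. Of 27 tested genes, 9 had a positive and 18 a negative log2 fold change, with a median of -0.06. At an unadjusted p under 0.05 stood 2 of the 27, against 9.2% of all tested genes. Of the Src family kinases that phosphorylate the ITAM, Lyn averaged 616 ± 37.3 CPM at ZT13 and 629 ± 33.9 at ZT1, and Fgr 689 ± 65.5 CPM at ZT13 and 760 ± 70.6 at ZT1, and the groups overlapped in both. Syk, the kinase that docks on the phosphorylated ITAM, had 333, 349, 365 and 373 CPM in ZT13 replicates 1 to 4, against 379, 372, 444 and 407 CPM in ZT1 replicates 1 to 4, a log2 fold change of -0.17 ± 0.08 (SE; edgeR adjusted p = 0.572). Its groups overlapped by only 1 ZT13 library above the lowest ZT1 library. Prkcd, a protein kinase C isoform, had 576, 538, 611 and 623 CPM in ZT13 replicates 1 to 4, against 704, 727, 664 and 710 CPM in ZT1 replicates 1 to 4. Those groups did not overlap, as in 5.66% of all tested genes, and the log2 fold change was -0.26 ± 0.08 (SE; edgeR adjusted p = 0.449). The adaptor gene Lcp2 (SLP-76) averaged 306 ± 14.96 CPM at ZT13 and 371 ± 39.5 at ZT1 (log2 fold change -0.28, edgeR adjusted p = 0.491).

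On the inhibitory side, Inpp5d, which encodes the SHIP1 recruited by FcγRIIB, averaged 247 ± 16.0 CPM at ZT13 and 267 ± 9.65 at ZT1 (log2 fold change -0.11 ± 0.08 SE, edgeR adjusted p = 0.727). Ptpn6 (SHP-1) averaged 913 ± 106.6 CPM at ZT13 and 972 ± 40.2 at ZT1. Of the 10 phosphatase, Dok and related genes listed, 3 were higher and 7 lower at ZT13, with a median log2 fold change of -0.06. Dok2, an adaptor that restrains tyrosine kinase signalling, had 51.3, 60.5, 50.6 and 56.8 CPM in ZT13 replicates 1 to 4, against 102.0, 73.3, 83.9 and 72.5 CPM in ZT1 replicates 1 to 4. Its groups did not overlap, as in 5.66% of all tested genes. Dok2 had the smallest p of the signalling genes listed (log2 fold change -0.60 ± 0.13 SE, edgeR adjusted p = 0.298), without passing the threshold.

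Effector genes of phagocytosis and the oxidase were divided, with 9 of 19 higher and 10 lower at ZT13 and a median of 0.00. Cyba, the p22phox subunit of the oxidase, averaged 1301 ± 108.5 CPM at ZT13 and 970 ± 287 at ZT1 (log2 fold change 0.42, edgeR adjusted p = 0.519). By library it resembled Fcer1g, with 1221, 1237, 1458 and 1287 CPM in ZT13 replicates 1 to 4, against 800, 901, 1393 and 785 CPM in ZT1 replicates 1 to 4. Such likeness is not particular to this pathway, since 152 genes were closer to Fcer1g than Fcgr3 was. Elmo1, an engulfment adaptor gene, averaged 196 ± 19.6 CPM at ZT13 and 225 ± 3.22 at ZT1 (log2 fold change -0.20, edgeR adjusted p = 0.539), and Rac2, the GTPase of the neutrophil oxidase, 2883 ± 157 CPM at ZT13 and 2521 ± 294 at ZT1. Of the 7 complement receptor genes tested, which serve the other opsonin pathway, 1 was higher and 6 were lower at ZT13. None stood at an unadjusted p under 0.05, against 9.2% of all tested genes. Itgb2, the most abundant of them, averaged 2561 ± 139 CPM at ZT13 and 2567 ± 93.3 at ZT1.

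Other adaptors with or without the gamma chain were compared with Fcer1g. Tyrobp (DAP12), the other ITAM adaptor of myeloid cells, averaged 1565 ± 180 CPM at ZT13 and 1177 ± 448 at ZT1, a log2 fold change of 0.41 ± 0.23 (SE; edgeR adjusted p = 0.626). Its ZT1 values were 822, 1201, 1801 and 885 CPM in replicates 1 to 4, again with replicate 3 highest. Hcst (DAP10), an adaptor with no ITAM, averaged 60.1 ± 8.02 CPM at ZT13 and 40.0 ± 12.3 at ZT1 (log2 fold change 0.59, edgeR adjusted p = 0.491). Clec4e (Mincle), a receptor for microbial glycolipids that pairs with the gamma chain, averaged 1241 ± 63.2 CPM at ZT13 and 1550 ± 341 at ZT1 (log2 fold change -0.32, edgeR adjusted p = 0.542). A gamma chain partner thus had an estimate opposite in sign to that of Fcer1g. Of the 6 genes tested here, 3 were higher and 3 lower at ZT13, with a median of 0.03.

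Fc receptors for other purposes were also counted. Of 14 genes listed, 7 were in the table and 5 were tested, all 5 with positive estimates and a median of 0.25. At an unadjusted p under 0.05 stood 0 of the 5, against 9.2% of all tested genes. Fcgrt, the neonatal Fc receptor that salvages IgG, averaged 11.97 ± 3.08 CPM at ZT13 and 9.78 ± 1.86 at ZT1, and Trim21, the cytosolic antibody receptor, 16.9 ± 2.19 CPM at ZT13 and 15.4 ± 0.777 at ZT1. Of 15 ligand genes listed, 4 were in the table and only Ighm was tested, with 167 ± 17.7 CPM at ZT13 and 190 ± 46.8 at ZT1. Igkc and Ighd had 0 counts in all ZT13 libraries, and the IgG heavy chain genes were not analysed here. B cell and plasma cell markers summed to 2.77 to 7.61 CPM at ZT13 and 2.15 to 3.20 CPM at ZT1, with Ebf1 at 0 in all 8 libraries. T cell and NK cell markers, of interest since NK cells use Fcgr3, summed to 8.85 to 21.4 CPM at ZT13 and 9.18 to 19.1 CPM at ZT1, with Prf1 and Gzmb at 0 in all ZT13 libraries. Prf1 averaged only 0.391 ± 0.117 CPM at ZT1. Fewer genes were detected in the ZT13 libraries (13945 to 15751) than in the ZT1 libraries (15760 to 17701). Zeros at ZT13, here and for Igkc and Ighd, are therefore not read as a loss. Microglial markers summed to 135 to 254 CPM at ZT13 and 151 to 217 CPM at ZT1, and mast cell, basophil and eosinophil markers, whose cells pair Fcer1g with the IgE receptor, to 44.9 to 56.2 CPM at ZT13 and 38.2 to 57.1 CPM at ZT1.

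**Figure D5:**
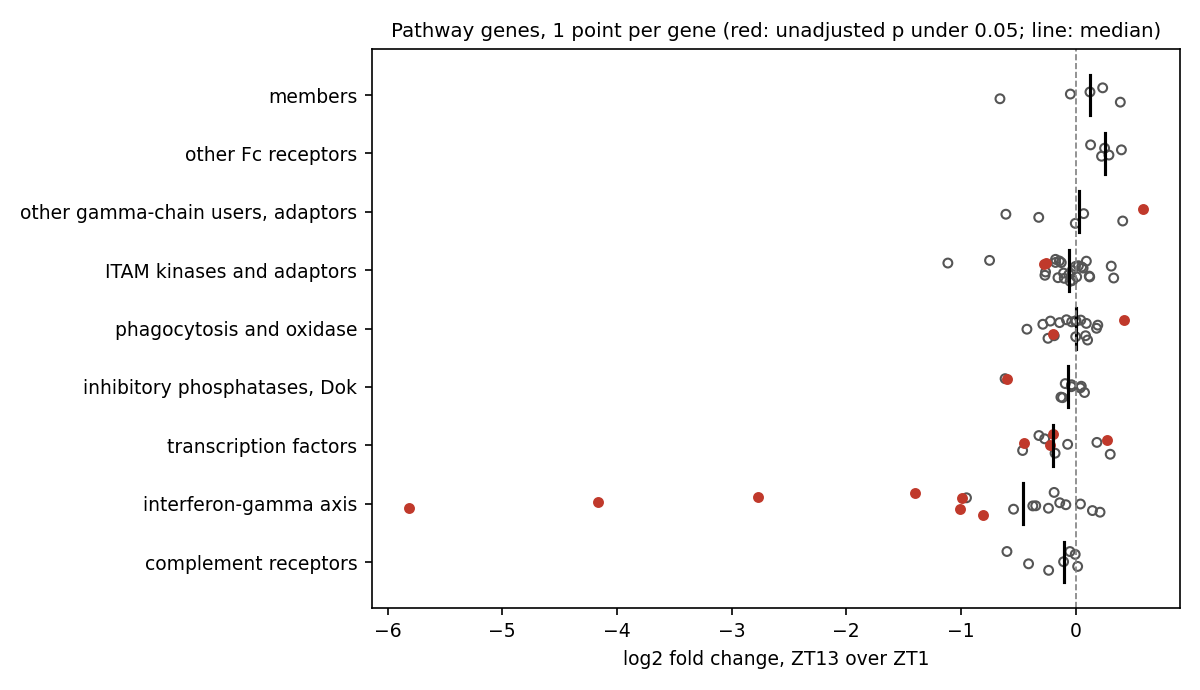
Log2 fold change of ZT13 over ZT1 for the members and for the pathway genes by list, 1 point per tested gene, red where the unadjusted p was under 0.05, with a line at each median. The interferon-gamma axis reaches furthest to the left, with a median of -0.46, while the members spread from -0.66 to 0.39.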

How the data were processed

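Raw gene counts, as deposited by the authors in 1 table, covered 8 libraries of sorted spinal cord neutrophils, 4 at ZT13 and 4 at ZT1, in 1 batch. Per the labels' protocols, cDNA was amplified with SMART-Seq v4, tagmented with the unstranded Nextera XT kit, and single reads of 50 bases were sequenced. The submitters' processing notes name STAR 2.7.10b, Subread 2.0.3, featureCounts, FastQC, DESeq2 1.46.0 and build GRCm38; the roles, strand setting, treatment of multi-mapped reads and annotation release were not given in the sources used here. The labels give cells per mouse but no animal identifiers, so each sample was taken as 1 mouse; otherwise p-values would reflect only technical spread among the samples.

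The whole table was fitted with edgeR 4.0.16 in R 4.3.3: filterByExpr (minimum count 10, minimum total 15; 12610 genes kept), TMM factors, robust quasi-likelihood F-tests of ZT13 over ZT1 and Benjamini-Hochberg adjustment with a threshold of 0.05. Standard errors were derived from the log2 fold change and F. The CPM are TMM-scaled; log2 CPM used a prior count of 2. Names, coordinates and lengths came from GENCODE M21, with identifiers matched without versions (22222 of 23369; the rest held 0.125% of counts). Counting limits cover counting error only. The fits were tested on simulated data. Members and lists were chosen with earlier results of these data known. Named genes are all members, up to 4 genes of smallest p and the most abundant of each pathway list, sort markers, and the 3 nearest profiles per member; some others were added for their role in the pathway (Lyn, Fgr, Ifngr1, Inpp5d, Ptpn6, Rac2 and Fcgrt among them), and not every gene allowed is printed. Alternatives covered normalization, filter, test (DESeq2 1.42.0, limma-voom 3.58.1), blocks, lengths and each library left out.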

Additional observations from a re-analysis of the deposited data

Results flagged for a closer look

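Within groups of 4 libraries, values were checked for a library whose gap to its nearest neighbour took a share of the group's range above Dixon's 95% critical value; 13 quantities in 2 groups gave 26 checks, of which chance flags about 1 in 20. Fcgr1 in ZT1 replicate 3, at 50.2 CPM, stood apart from the other 3 ZT1 libraries at 24.2 to 26.1 CPM. Fcer1g in ZT13 replicate 1, at 1125 CPM, stood below the other 3 ZT13 libraries at 1264 to 1282 CPM, and it still lay above 3 of the 4 ZT1 libraries.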

How the results depend on the processing

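No member passed the threshold under any of the alternatives run. Fcgr1 stayed negative (-0.86 to -0.34 over all alternatives), and Fcgr3 (0.16 to 0.35), Fcgr4 (0.01 to 0.32) and Fcer1g (0.28 to 0.62) stayed positive. Fcer1g stood at an unadjusted p under 0.05 in 8 of the 10 settings other than leaving out a library, and Fcgr1 in 5 of 10. With each library left out it was 1 of 8 fits for Fcer1g and 3 of 8 for Fcgr1. Neither gene stood there in the main fit, where 9.2% of all tested genes did. All settings reuse the same counts, so these tallies are not repeated evidence. Fcgr2b ranged from -0.1817 to 0.0702 with each library left out. The count of genes past the threshold was 0 with edgeR, 115 with DESeq2 and 256 with DESeq2 on unfiltered counts, the last chosen after seeing the data; the cause was not tested. The activating to inhibitory log2 ratio differed by 0.14 to 0.44 with each library left out, by -0.573 with Fcgr1 alone and by -0.01 as a mean of log2 values.

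Numbers shared by the sample titles were not shown to pair the samples, and a pairing was not excluded. Same-numbered libraries had correlations of -0.04 to 0.02, and 1 of 8 correlated best with its own number. With these numbers as a replicate block 0 genes were called and Fcer1g stood at 0.44. With the numbers of the library names as a replicate block, which keeps only samples with a shared number, Fcgr2b turned to 0.14 and Fcer1g stood at 0.61. Every member lay far above the level of 3 counts in every library.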
